A study of Allium sativum with 18 samples.

Results

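Basal and storage clove of germinating garlic bulbs (*Allium sativum*) were compared across the genome, 3 libraries of each tissue out of 18 libraries in the study. The samples were chosen by their labels alone: germinating basal clove, replicates 1 to 3, against germinating storage clove, replicates 1 to 3. All plants carried the source name Chalingzipisuan, and germinating bulbs were those with short shoots. The tissues were separated by hand and frozen. The study describes its samples as biological replicates. The labels do not say which structures each part held, nor whether the 2 parts of a replicate came from the same bulbs. The other 12 libraries came from basal and storage clove of dormant bulbs and of enlarging bulbs, which were taken soon after the flower stems came out, and are used here for the course of single genes and gene classes.

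A garlic clove consists largely of a swollen storage leaf, rich in fructans, that encloses a bud on a short compressed stem. During germination the bud elongates into a shoot and roots emerge from the stem plate, while reserves of the storage leaf are broken down and exported. Tissue that grows and tissue that supplies it therefore lie side by side in one organ. No gene list could be set against this background, because the deposited table gives gene IDs without names or descriptions. The labelled tissues could not be checked against marker genes for the same reason.

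Levels are given in FPKM, the reads of a gene scaled to the length of its model and to the reads of the library. Each germinating basal library held 18579917 to 21897520 reads assigned to genes and each germinating storage library 10383944 to 12988262. At 1 kb of coding length, 3 reads amount to 0.137 to 0.161 FPKM in these basal and to 0.231 to 0.289 FPKM in these storage libraries, as a limit of counting only. In dormant bulbs the depths lay further apart, at 19611684 to 20897436 reads in basal and 6540146 to 7155009 in storage libraries. There 3 reads amount to 0.144 to 0.153 FPKM in basal and 0.419 to 0.459 FPKM in storage libraries. Differences are basal minus storage on the log2(FPKM + 1) scale, which understates those of genes with low levels. A gene was called when its adjusted p fell below 0.05 in limma. In whole tissue, fewer cells of one kind and less RNA per cell cannot be told apart.

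The replicates were not equally far from the other tissue. Basal replicate 3 had a mean Spearman correlation of 0.829 with the storage libraries, against 0.798 and 0.778 for basal replicates 1 and 2. Among storage libraries, replicate 1 correlated with basal clove at 0.823, replicate 3 at 0.804 and replicate 2 at 0.779. Between replicates the correlations were 0.944 to 0.978 in basal and 0.97 to 0.977 in storage clove. Where leaving out one of these libraries changed a call or moved a count widely, the value without it is given.

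Every basal library had more genes with a read than every storage library. A read was found for 35196, 35631 and 34987 genes in the basal libraries and for 33140, 32810 and 32373 genes in the storage libraries. The means were 35271 ± 328.5 and 32774 ± 384.7 genes (SD, n = 3 each). After all 6 libraries had been thinned to the same 10382926 reads, the counts were 33816, 34128 and 33813 in the basal libraries, against 32913, 32356 and 32373 in the storage libraries. The difference was then 1372 genes in place of 2497, and both differences had an exact permutation p of 0.1 (two-sided), the smallest that 3 libraries against 3 allow. The 100 most abundant genes of a library held 17.3% ± 0.265 of its summed FPKM in basal and 17.3% ± 1.11 in storage clove (SD, n = 3 each, exact permutation p = 1.0). The 10 most abundant held 4.55% ± 0.186 in basal and 5.04% ± 0.594 in storage clove (exact permutation p = 0.4). The sign of that last difference turned when reads were counted in place of FPKM, at 4.6% ± 0.442 in basal and 3.98% ± 0.306 in storage clove (exact permutation p = 0.3).

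Over 30530 genes tested, 18457 were called, 60.5% of them all. Higher levels in basal clove were called for 7636 genes, 25.0%, and lower levels for 10821, 35.4%. The 3 values of one tissue all exceeded the 3 of the other in 18834 genes, 61.7%, of which 17042 were called. Most of the calls for lower levels were small. Below 1 on the log2 scale 2928 genes were higher and 7879 lower in basal clove, and between 1 and 2 the counts were 2384 and 2567. Beyond 2 the balance was the other way, with 1157 higher and 340 lower between 2 and 3, 675 and 29 between 3 and 4, and 492 and 6 at 4 or more. At 1 or more, 4708 genes (15.4%) were higher and 2942 (9.64%) lower, and at 3 or more 1167 (3.82%) were higher and 35 (0.115%) lower.

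**Figure D1:**
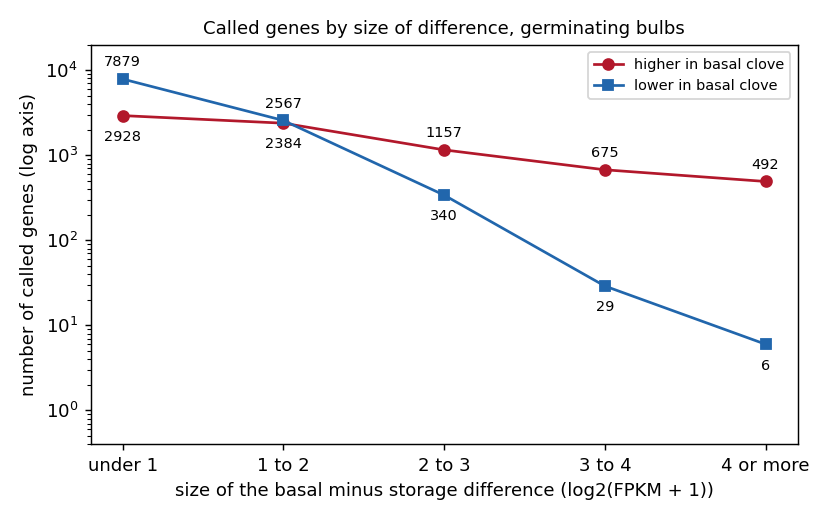
Number of called genes (vertical log axis) by the size of the basal minus storage difference on the log2(FPKM + 1) scale (horizontal axis), higher in basal clove as circles and lower as squares. Lower genes outnumber higher ones below 1, at 7879 against 2928, while at 4 or more 492 genes are higher and 6 lower.

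Which direction held more genes depended on scaling for all calls together, but not at 3 or more. The median difference of all genes tested was -0.16 as deposited, -0.05 when the libraries were scaled by median ratios and -0.26 when their distributions were made equal by quantiles. Median-ratio scaling gave 8829 higher and 8771 lower genes, and quantile normalization 7050 and 12522. At 3 or more the same scalings gave 1368 higher and 27 lower, and 1132 higher and 43 lower. Without basal replicate 3, the number lower by 3 or more became 78 and the number higher became 1332. On the log2 scale of counts per library size that voom uses, which sets low levels further apart, 2465 genes were higher and 165 lower by as much.

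The imbalance at large differences was also read from the levels in the same libraries, which is not a separate test of it. Of the 12720 genes at 10 FPKM or more in every basal library, 187 (1.47%) were under 1 FPKM in every storage library. Of the 12832 genes at 10 FPKM or more in every storage library, none was under 1 FPKM in every basal library, where the lowest such gene reached 1.01 FPKM in its highest basal library. With the lower limit raised to 5 FPKM, the counts were 838 genes for basal and 88 for storage clove. The 187 genes had a median level of 22.5 FPKM in basal clove and reached 238 FPKM, while their reads in the 3 storage libraries together had a median of 8. For 6 of them no read was counted in any germinating storage library. Their number became 292 without basal replicate 3 and 295 without storage replicate 1, and 180 after thinning to equal depth, whereas the opposite count lay between 0 and 3 in each of these settings and without any other single library.

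Among these 187 genes, 127 were already at 1 FPKM or more in every dormant basal library and 43 were under 1 FPKM in all of them. In storage clove 95 of the 187 were under 1 FPKM in every library of all 3 stages. No like counts were made for all 12720 genes at 10 FPKM or more in basal clove. These counts therefore describe the 187 genes and do not set them apart from the others.

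Both the level of the called genes and their share of the transcript pool were read by class. The 1167 genes higher by 3 or more had a median of 49.3 FPKM in basal clove against 1.81 FPKM in storage clove, and 367 of them averaged at least 100 FPKM in basal clove against 10 in storage clove. They took 17.7%, 18.4% and 14.0% of the summed FPKM of basal replicates 1, 2 and 3, against 1.12%, 0.434% and 0.849% in the storage libraries. The 35 genes lower by 3 or more had a median of 4.02 FPKM in basal clove against 54.9 FPKM in storage clove, and took 0.036%, 0.0302% and 0.065% of the pool in the basal libraries, against 0.469%, 0.558% and 0.506% in the storage libraries. At 1 or more, the 4708 higher genes had a median of 13.9 FPKM in basal clove against 1.71 FPKM in storage clove. The 2942 genes lower by 1 or more had a median of 6.83 FPKM in basal clove against 19.6 FPKM in storage clove, with a median storage-to-basal ratio of 2.83. They took 6.19%, 5.41% and 9.6% in basal and 20.3%, 23.6% and 20.5% in storage clove. These shares describe genes selected on the same libraries and carry no test.

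The same classes were also read in the dormant and enlarging libraries, which entered the filter and the variance estimates but not the germinating difference. There each held a smaller share than at germination in the tissue where it is high, while in the other tissue the genes higher by 1 or more held a larger share than at germination. The 4708 genes higher by 1 or more took 24.6% to 30.7% of the pool in germinating basal clove and 3.3% to 4.87% in germinating storage clove. In dormant bulbs they took 14.7% to 16.2% in basal and 5.79% to 6.29% in storage clove, and in enlarging bulbs 12.8% to 14.3% and 5.53% to 6.15%. The 2942 genes lower by 1 or more took 5.31% to 5.89% in dormant basal and 14.0% in each dormant storage library, and 7.09% to 7.48% in enlarging basal and 13.6% to 14.6% in enlarging storage clove. Basal and storage shares did not overlap in dormant or in enlarging bulbs in either class. At germination their separation follows from the choice of the genes. A smaller share at the other stages, where the class is high, is also partly fixed by that choice.

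**Figure D2:**
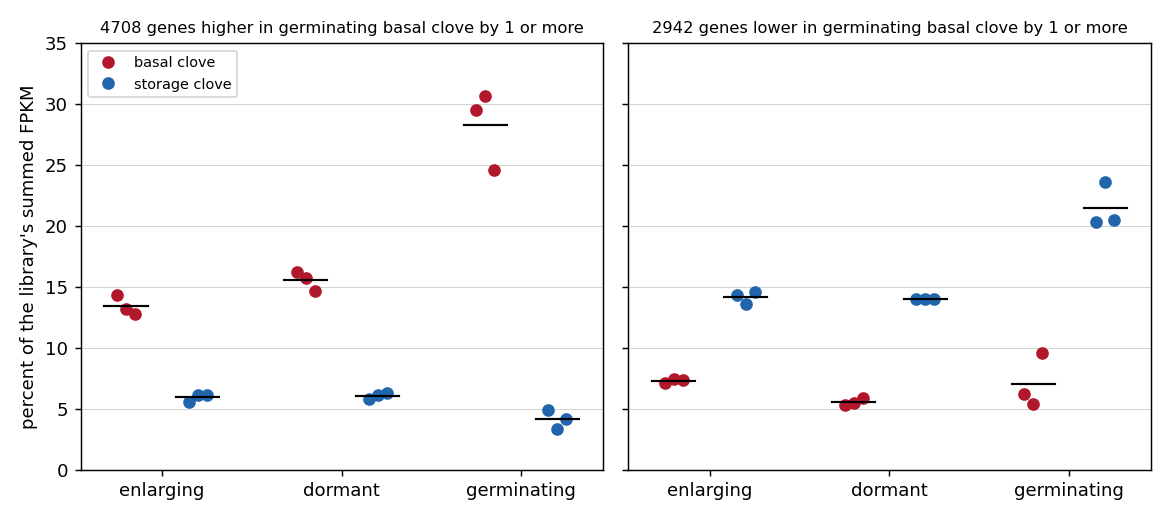
Percent of each library's summed FPKM (vertical axis) held by the genes higher (left) or lower (right) by 1 or more in germinating basal clove, by stage, with 1 point per library, basal left of storage, and a line at the mean. The higher genes reach 24.6% to 30.7% in germinating basal clove and stay at 3.3% to 6.29% in storage clove of every stage.

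The position of single libraries showed in these classes too. Basal replicate 3 was the lowest of its group for 896 of the 1167 genes higher by 3 or more, 76.8%, and the highest for 1731 of 2941 genes lower by 1 or more with unequal values, 58.9%. Storage replicate 1 was the highest of its group for 802 of the 1143 genes higher by 3 or more that had unequal values, 70.2%, and storage replicate 2 the lowest for 825, 72.2%. The median level of the 1167 genes in storage replicates 1, 2 and 3 was 5.38%, 1.56% and 3.15% of the basal mean. The median level of the 2942 genes lower by 1 or more was 31.4%, 29.8% and 39.1% of the storage mean in basal replicates 1, 2 and 3. Whether tissue of the other kind entered single libraries was not tested.

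**Figure D3:**
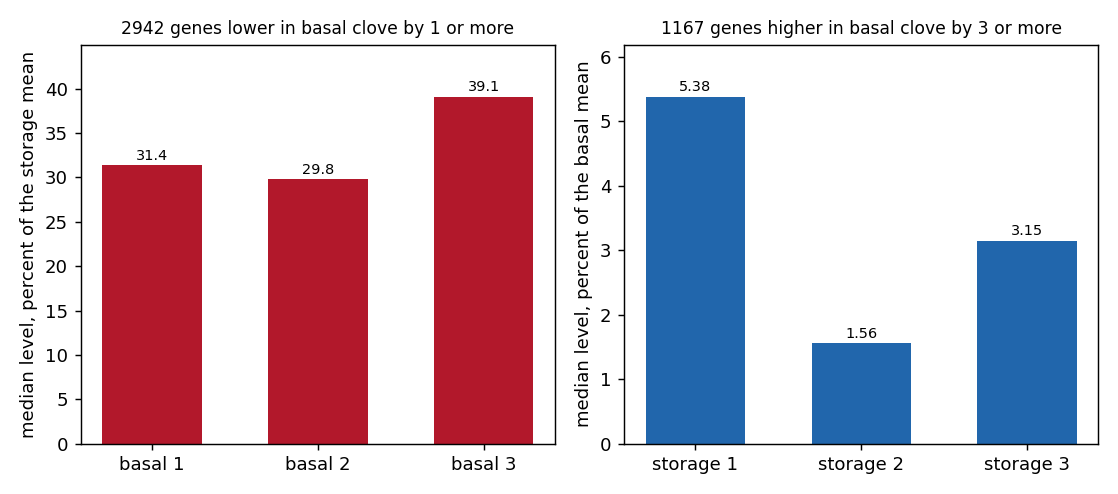
Median level, as a percent of the mean in the other tissue, of genes that are high in the other tissue, for each germinating basal library (left, genes lower in basal clove by 1 or more) and storage library (right, genes higher in basal clove by 3 or more). Basal replicate 3, at 39.1%, and storage replicate 1, at 5.38%, stand highest in their groups.

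The direction of the calls varied with the level of a gene, taken as its mean over all 18 libraries. Under 1 FPKM, near the limit of counting, 28.3% of 2494 genes were higher and 11.1% lower in basal clove. Between 1 and 10 FPKM, 25.7% of 12915 genes were higher and 25.3% lower. Between 10 and 100 FPKM, 23.2% of 13061 genes were higher and 48.3% lower, and between 100 and 1000 FPKM 27.5% and 47.2% of 1977 genes. Among the 83 genes at 1000 FPKM or more, 38 were higher and 31 lower. Differences of 1 or more were spread otherwise. They were found upward in 15.7% and downward in 3.13% of the genes under 1 FPKM. At 1 to 10 FPKM the shares were 18.2% and 9.15%, and at 100 to 1000 FPKM 11.4% and 11.3%. Calls of any size were also counted by coding length. Among the longest genes, from 1302 bp, 26.1% were higher and 44.7% lower, and among the shortest, below 429 bp, 19.4% and 29.9%, when the genes tested were divided into 4 classes of like number. The share higher was largest, 28.6%, between 765 and 1302 bp. At 1 or more, 14.7% were higher and 8.83% lower in the longest class, and 12.9% and 11.4% in the shortest. The median difference was -0.22 in the longest and -0.20 in the shortest class. The level and length classes were counted on the values as deposited only, and the balance of all calls depended on scaling as given above.

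**Figure D4:**
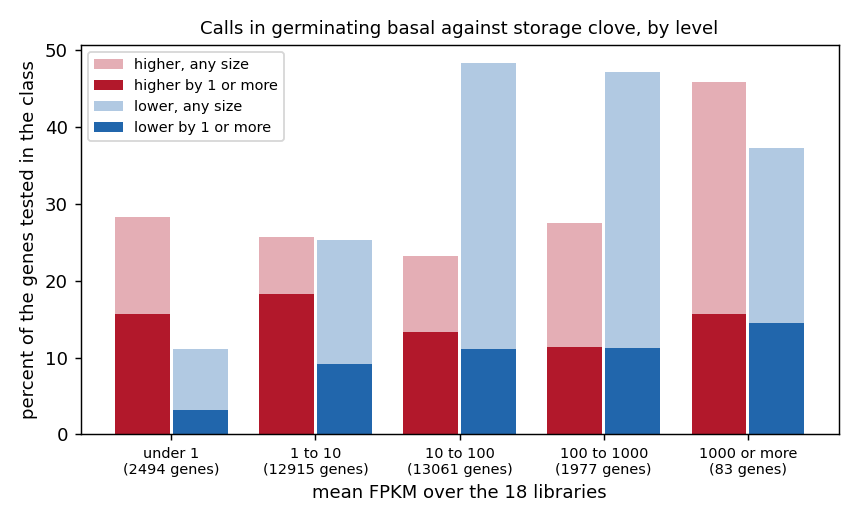
Percent of the genes tested (vertical axis) called higher (left bar) or lower (right bar) in germinating basal clove, in 5 classes of mean FPKM over the 18 libraries, pale for any size and dark for 1 or more on the log2 scale. Lower calls make up 48.3% at 10 to 100 FPKM, while calls of 1 or more are 13.3% upward and 11.1% downward there.

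Single genes are given by ID, chosen for the largest difference in mean FPKM among called genes whose tissues did not overlap. Asa3G01406.1, with a coding length of 354 bp, was the most abundant gene of basal replicates 1 and 3. It stood at 10054, 6896 and 9116 FPKM in the basal libraries, against 3410, 2270 and 3476 FPKM in the storage libraries. The groups lay well apart, with every basal value above every storage value. Its mean was 2.85-fold higher in basal clove, by 1.52 on the log2 scale (SE 0.24, limma adjusted p = 3.7e-05). In dormant bulbs it stood at 1628 ± 195.6 FPKM in basal clove against 1310 ± 281.2 FPKM in storage clove (SD, n = 3 each) and was not called (limma adjusted p = 0.25). In enlarging bulbs it was higher in basal clove, at 3157 ± 264.8 against 1716 ± 599.1 FPKM.

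Asa4G02690.1, with a coding length of 660 bp, was called at germination, with a 99.8-fold higher mean in basal clove, and at neither earlier stage. It reached 6205, 6365 and 4323 FPKM in the basal libraries, against 74.1, 16.1 and 79.1 FPKM in the storage libraries. Basal replicate 3 was the lowest of its group, and storage replicate 2 was the lowest of the other. The log2 difference was 6.89 (SE 0.91, limma adjusted p = 6.5e-06). In dormant bulbs the levels were 7.57, 3.05 and 7.52 FPKM in the basal libraries, against 1.62, 18.2 and 20.1 FPKM in the storage libraries, with overlapping groups and no call (limma adjusted p = 0.60). In enlarging bulbs they were 14.8 to 17.4 FPKM in basal clove and 0 to 13.7 FPKM in storage clove, without overlap but not called (limma adjusted p = 0.16).

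Asa2G05973.1, with a coding length of 498 bp, was the most abundant gene in each germinating storage library. It stood at 5104, 3897 and 6823 FPKM in the basal libraries, against 12749, 13961 and 7056 FPKM in the storage libraries. The groups did not overlap, but basal replicate 3 and storage replicate 3 lay close together. The mean in storage clove was 2.13-fold that in basal clove, a difference of -1.07 (SE 0.35, limma adjusted p = 0.015). The call was lost without basal replicate 2 (limma adjusted p = 0.068), without storage replicate 1 (0.054) and without storage replicate 2 (0.066), and also when only the 6 germinating libraries were fitted (0.054) and when these were also thinned to equal depth (0.057). Before germination its levels were far lower and its tissue ratio wider, at 11.9 ± 2.04 FPKM in basal clove against 77.8 ± 38.7 FPKM in storage clove of dormant bulbs (SD, n = 3 each), a 6.52-fold lower mean in basal clove.

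Asa1G03481.1, with a coding length of 693 bp, followed a similar course. It stood at 1078, 469.7 and 2808 FPKM in the basal libraries, against 4331, 6777 and 3112 FPKM in the storage libraries. The basal values spread widely, and basal replicate 3 came near the lowest storage value. The mean in storage clove was 3.26-fold that in basal clove, a difference of -2.00 (SE 0.51, limma adjusted p = 0.0028), which was -2.66 without basal replicate 3 and -1.37 without basal replicate 2. Dormant clove held 0.914 ± 0.75 FPKM in basal and 6.85 ± 4.1 FPKM in storage tissue (SD, n = 3 each), and enlarging clove 3.84 ± 0.362 and 22.3 ± 7.7 FPKM.

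**Figure D5:**
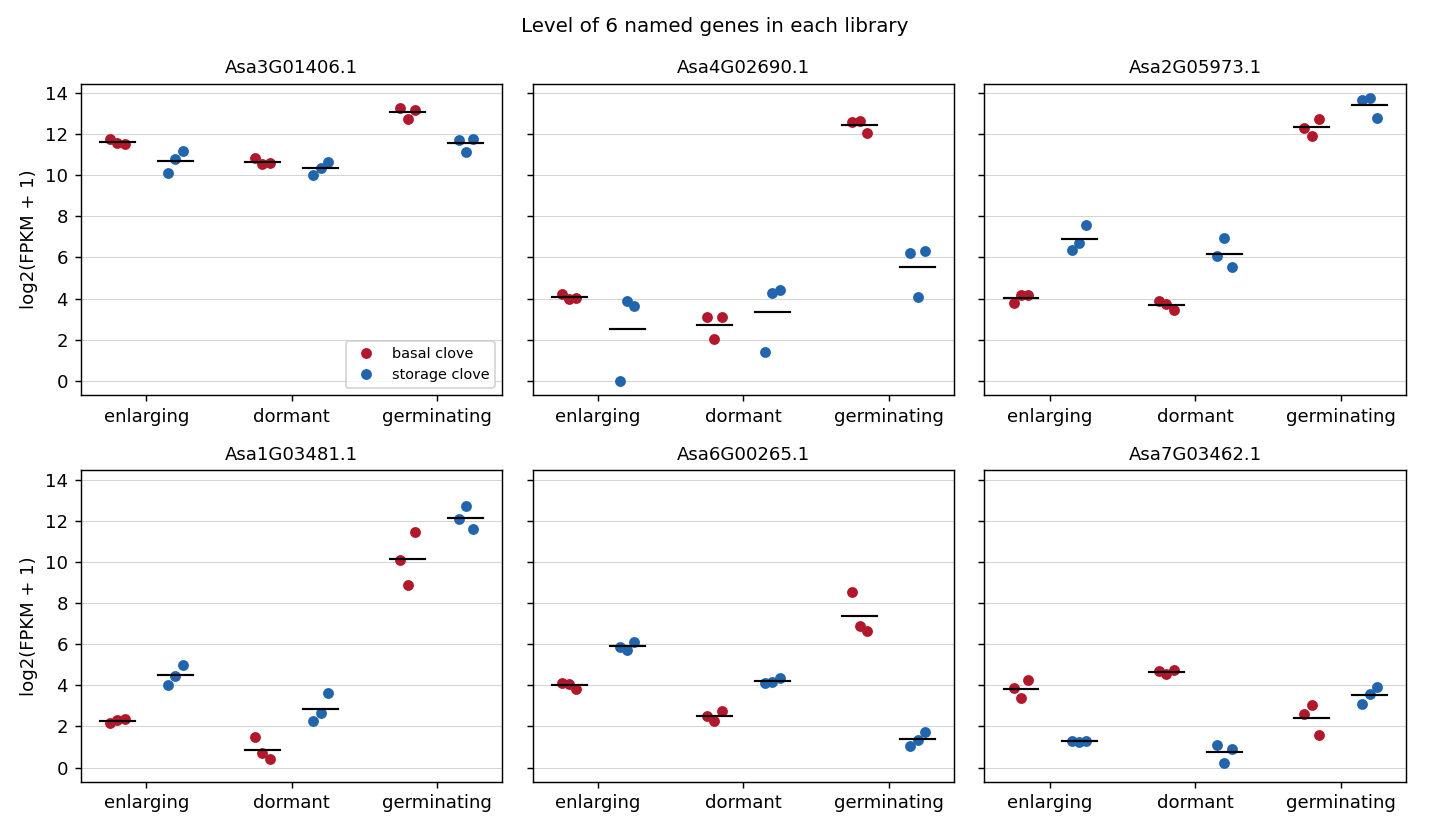
Level of 6 genes as log2(FPKM + 1) in each of the 18 libraries, by stage, with 1 point per library, basal left of storage, and a line at the mean. Asa4G02690.1 stands at 4323 FPKM or more in germinating basal and 79.1 FPKM or less in germinating storage clove, and the tissue difference of Asa6G00265.1 and Asa7G03462.1 turns round after dormancy.

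The genes called at germination were then followed in dormant and enlarging bulbs, whose libraries are separate. The same variance estimate of a gene served every stage, however, so the calls at different stages were not independent. In dormant bulbs 34.6% of all genes tested had called higher levels and 23.1% called lower levels in basal clove, and in enlarging bulbs 28.7% and 22.8% did. Of the 7636 genes higher at germination, 69.7% were also called higher in dormant and 62.5% in enlarging bulbs, while 5.97% and 5.58% were called lower. Of the 10821 genes lower at germination, 48.1% were also called lower in dormant and 46.0% in enlarging bulbs, while 10.2% and 10.3% were called higher. The same direction at dormancy was thus found in a larger share of the genes higher in germinating basal clove than of those lower, and the share of all genes called in that direction at dormancy differs in the same sense.

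Large differences recurred most. Of the 1167 genes higher by 3 or more, 877 were called higher in dormant and 920 in enlarging basal clove, and 836 in both, 71.6%. Of all 7636 genes higher at germination, 56.2% were called higher in both. The share of all genes tested that were called higher in both was not counted. At dormancy alone the shares were 75.1% of the 1167 and 69.7% of the 7636 genes, against 34.6% of all genes tested. The median difference of the 1167 genes was 3.83 in germinating, 2.17 in dormant and 1.89 in enlarging bulbs, against -0.16, 0.10 and 0.06 for all genes tested. Of the 35 genes lower by 3 or more, 28 were called lower in dormant and 29 in enlarging bulbs, and none was called higher. In neither earlier stage was a difference called for 16.4% of all 7636 genes higher and 23.9% of all 10821 genes lower at germination, against 28.5% of all genes tested. At 3 or more the shares were 14.9% of the 1167 higher and 8.57% of the 35 lower genes, the latter only 3 genes. Because these genes were selected on the germinating values, a smaller median at the other stages is partly fixed by the choice.

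Some genes were called in opposite directions at dormancy and germination. There were 456 genes higher in germinating and lower in dormant basal clove, 5.97% of the 7636 higher at germination. Of all genes tested, 23.1% were called lower at dormancy. Another 1109 were lower in germinating and higher in dormant basal clove, 10.2% of the 10821 lower at germination. Of all genes tested, 34.6% were called higher at dormancy. By a rule of level and separation, 1 of each is named, the one whose tissue difference changed most. Asa6G00265.1 stood at 366.1, 116.9 and 98.9 FPKM in the germinating basal libraries, against 1.05, 1.51 and 2.36 FPKM in the germinating storage libraries. In dormant bulbs it stood at 4.75, 3.75 and 5.78 FPKM in the basal libraries, against 16.5, 17.0 and 19.5 FPKM in the storage libraries. Its log2 difference was 5.98 at germination and -1.71 at dormancy, a change of 7.68 (SE 0.48, limma adjusted p = 1.2e-08). Basal replicate 1 was the highest by far, and the groups did not overlap at either stage.

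Asa7G03462.1 turned the other way at lower levels. In germinating bulbs it stood at 5.15, 7.25 and 2.04 FPKM in the basal libraries, against 7.56, 10.8 and 14.1 FPKM in the storage libraries. In dormant bulbs it stood at 25.1, 22.8 and 25.6 FPKM in the basal libraries, against 1.12, 0.173 and 0.853 FPKM in the storage libraries, which rest on 6, 1 and 5 reads. The difference was -1.10 at germination (limma adjusted p = 0.0078) and 3.94 at dormancy, a change of -5.04 (SE 0.46, limma adjusted p = 4.7e-07). The germinating groups lay close together, with 7.25 FPKM as the highest basal and 7.56 FPKM as the lowest storage value.

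The IDs carry a running number, so that genes with consecutive numbers can be compared. Of 735 genes higher by 3 or more whose next ID was tested, the next one was also higher by 3 or more in 136, 18.5%, against 3.92% of all 18590 pairs of consecutive IDs tested. For genes lower by 1 or more the share was 25.3% of 1811, against 9.80%. Whether the numbering follows the genome and whether reads were shared between similar neighbours is not stated by the labels or the table. By the first part of the ID, Asa0 to Asa8, the share of genes higher by 1 or more lay between 13.2% for Asa8 and 16.4% for Asa2, and the share lower by 1 or more between 9.02% for Asa6 and 10.7% for Asa8.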

How the data were processed

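The authors deposited FPKM values of 57561 gene IDs in 18 libraries, 1 column each. The submitters' processing notes name HISAT2. The sources used here do not give the counter, genome build, annotation or use of strand. The table has 1 further, empty column, which was not used.

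Whole reads were recovered from the steps of the FPKM values, which gave the library totals and coding lengths. All 595800 values above 0 came out whole within 0.01 reads, with each gene's length estimated from the same values, and 95.2% of lengths of genes with over 100 reads were multiples of 3. The recovered unit is called a read, though it may be a pair.

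A gene entered the tests where 3 or more libraries reached 1 FPKM. Its log2(FPKM + 1) values were fitted with R 4.3.3 and limma 3.58.1, using a variance trend and 1 mean for each of 6 groups, which left 12 residual degrees of freedom from 18 libraries. The Benjamini-Hochberg adjustment ran over all genes tested within a comparison. Single values per library were compared by exact permutation tests.

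The genes named were the 2 highest and 2 lowest by difference in mean FPKM among called genes without overlap, and 1 gene each way for the change between stages, among genes called at both stages, without overlap at either and with a group mean of at least 10 FPKM at each. More would have been named had the IDs carried names, and planned marker lists could not be applied. The samples, rules and classes were chosen with earlier results of these data known. Alternatives were 16 other fits, among them 6 that left out 1 germinating library each. The replicates were compared first, and the chi-square per gene between replicates was 6.91 or more, so each library counted as 1 sample.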

Additional observations from a re-analysis of the deposited data

Results flagged for a closer look

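The tissue difference of 5 named genes was not the same at germination as at dormancy, by a test of the change itself in limma with Benjamini-Hochberg adjustment over all genes. The difference, basal minus storage on the log2(FPKM + 1) scale, was larger at germination by 7.50 for Asa4G02690.1 (SE 1.28, adjusted p = 0.00022) and by 1.19 for Asa3G01406.1 (SE 0.33, adjusted p = 0.0092). It changed by 1.44 for Asa2G05973.1 (SE 0.50, adjusted p = 0.028), which was lower in basal clove at both stages and less so at germination. It changed by 7.68 for Asa6G00265.1 and by -5.04 for Asa7G03462.1, whose values are given above. Only for these last genes was the change followed over alternative fits, at 7.1 to 8.63 and -6.46 to -4.63. The call of Asa2G05973.1 at germination was itself lost in 5 of 16 alternatives. For Asa1G03481.1 the change on this scale was -0.02 (SE 0.72, adjusted p = 0.99). Its mean in storage clove was 7.49-fold that in basal clove at dormancy and 3.26-fold at germination. The dormant basal mean was 0.914 FPKM, a low level at which this scale understates differences. These genes had been chosen for their values at germination, and 2 of them for this very change.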

How the results depend on the processing

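Over 16 alternatives, 15046 to 20647 genes were called, 6615 to 8829 of them higher and 8431 to 12522 lower in basal clove, each within 1.5 times the number reported. The genes higher by 3 or more were 2360 with a pseudocount of 0.1 and 2465 with voom, and those lower by 3 or more 123 and 165. Leaving out 1 library gave 28 to 78 lower genes. Of the 7636 genes called higher, 7299 were also called without basal replicate 3 and 6474 in the 6 germinating libraries alone after thinning to equal depth. Of the 10821 genes called lower, 9881 and 8178 were also called in these settings. With median-ratio scaling all 7636 higher genes were also called, but only 8768 of the lower genes. Asa3G01406.1, Asa4G02690.1 and Asa1G03481.1 were called in each of 16 alternatives, and Asa2G05973.1 in 11. The difference in the share of the 10 most abundant genes was -0.49 percentage points in FPKM and 0.623 in reads. The causes were not tested. With a fit of each stage alone, 70.4% of the genes higher and 51.1% of those lower at germination were called the same way at dormancy. Deviations from the group means correlated at 0.074, -0.238 and 0.049 between basal and storage libraries of the same number. Between basal and storage libraries of different number they correlated at -0.313 to 0.319. With 3 libraries per tissue, these values cannot show whether the parts of a replicate came from the same bulbs. A fit with the replicate number as a block called 17673 genes in place of 18457, with 1167 higher and 35 lower by 3 or more. The counts of genes near absence in one tissue without single libraries were added after the data were seen. Storage libraries held fewer reads than basal ones, so that low levels of short genes were measured with less precision there.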
